A study of Mus musculus with 5 samples.

Results

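Pax5 encodes a paired-box transcription factor that commits cells to the B lineage and holds them there. The Pax5 locus is described here by the intervals, in 5 lists of chromatin immunoprecipitation peaks for IRF8 and IRF4 in mouse B cells, whose centre lay in the Pax5 gene body or within 50 kb of it. There were 8 such intervals among 5590 in all: 2 of 1826 for IRF8 in germinal centre (GC) B cells, 1 of 1059 for IRF8 at 72 h, 1 of 234 for IRF8 at 48 h, 2 of 898 for IRF4 at 72 h and 2 of 1573 for IRF4 at 48 h. They were chosen by where peaks had been called, so their presence in a list and their tag counts are given as descriptions, with no test.

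All cells came from wild-type C57BL/6 mice. GC B cells, the dividing B cells of immunised lymphoid tissue, were sorted 13 days after immunisation with the hapten carrier NP-KLH and were not cultured. The other 4 libraries were made from naive splenic B cells cultured with 10 µg/ml lipopolysaccharide (LPS), a bacterial product that activates B cells, for 72 h or 48 h. The antibodies were C-19 for IRF8 and M-17 for IRF4. The sources used here do not state the sex, the age or the number of mice behind a library. Each group held 1 library, so no difference between libraries could be set against a spread between replicates, and the intervals given cover counting error only. No expression data were analysed here, so the labelled cell types could not be checked against marker genes. The header of the IRF8 72 h list names a second replicate of the tags. The GC list holds positions alone, was made with another caller and has no tag counts; cell type and caller cannot be told apart in it.

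PAX5 switches on genes of the B cell receptor pathway and represses genes of other lineages, and its loss is a step in plasma cell differentiation. IRF4 and IRF8 are related factors that bind DNA weakly alone. With PU.1 or SPIB, factors of the ETS family, they bind the ETS-IRF composite element (EICE). They also bind the AP-1-IRF composite elements (AICE), with BATF and JUN proteins, and the interferon-stimulated response element (ISRE). In the mouse, an enhancer with binding sites for PU.1, IRF4, IRF8 and NF-kappaB is known in the fifth intron of Pax5; whether the interval described here is that element was not tested.

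The 4 LPS libraries held between 3065426 and 4375858 tags, of which 0.18% to 0.82% fell in peaks, lowest in the IRF8 48 h library. Normalised tag counts are the authors' own, scaled to 10000000 tags per library. The file headers give 9 to 11 tags as the caller's threshold for the false discovery rate, but the smallest listed peak of each library had 7 to 9 tags, so the threshold was no floor of these counts. The caller also asked for an excess over the surroundings, and a place missing from a list is not shown to be unbound. The peak values used here set a place against its surroundings and none against an input control. Presence in a list was thus not checked against input.

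The 8 intervals fell in 4 places, and 1 place was in all 5 lists. It lay in intron 5 of Pax5, a gene of 180302 bp on the minus strand of chromosome 4 (44544017 to 44724318 in mm9, GENCODE M1 gene ENSMUSG00000014030.9). Intron 5 spans 33716 bp between the fifth and the sixth exon of the longest transcript, Pax5-001, and the place was 40.3 kb downstream of the start of that transcript. The non-coding gene Gm12462 runs through it on the other strand, with its start 6769 bp from the IRF8 72 h centre. Each of the other 3 places was in 1 list. The IRF4 48 h list had a peak in intron 6, 86.3 kb downstream of the start. The IRF4 72 h list had a peak 45.2 kb upstream of the Pax5 start, at an exon of the neighbour Zcchc7 and 19 bp from one of its starts. The GC list had an interval 46.9 kb upstream, in an intron of Zcchc7 and 1.71 kb from its nearest start. Zcchc7 serves as a location only. No interval of any list had its centre closer than 12.6 kb to an annotated start of Pax5.

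**Figure D1:**
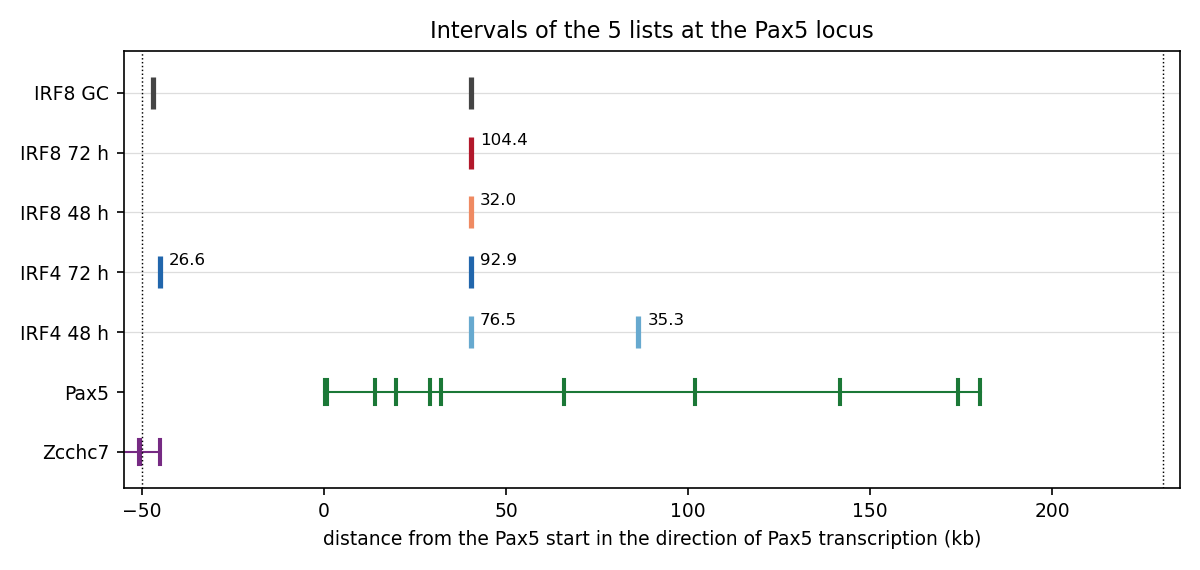
Positions of the 8 intervals (ticks, not to the width of the interval) along the Pax5 locus, in kb from the Pax5 start in the direction of transcription, with 1 row per list, normalised tag counts beside the LPS peaks, and exons of Pax5 and Zcchc7 below. All 5 lists have a tick at 40.2 to 40.3 kb, and every other position holds 1 list; dotted lines mark 50 kb outside the gene body.

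The window had no crowded edge. The 2 upstream intervals were 45.2 and 46.9 kb outside the gene body, and the next interval of any list beyond the 50 kb limit was 356 kb away, in the GC list.

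The intron 5 place held 1 EICE, at 44684073 to 44684082 on the plus strand of chromosome 4. The EICE was searched as GGAANNGAAA on both strands. The 300 bases below are shown because all 5 lists meet on them; they are chr4:44683907-44684206 of mm9, plus strand, from the reference genome, with the EICE in capitals.
Pax5 intron 5: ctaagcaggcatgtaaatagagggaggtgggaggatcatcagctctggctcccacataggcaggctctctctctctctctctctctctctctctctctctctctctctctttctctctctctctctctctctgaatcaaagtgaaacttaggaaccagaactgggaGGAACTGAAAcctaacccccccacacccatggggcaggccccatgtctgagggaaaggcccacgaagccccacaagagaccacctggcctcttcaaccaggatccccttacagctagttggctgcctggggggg
A run of 68 bases made of C and T alone, 46 of them an unbroken CT repeat, lies 34 bases before the EICE. Of the 178 words of 24 bases within 100 bp of the IRF8 72 h centre, 61 (34.3%) were found more than 1 time in the genome, while the median word was found 1 time. In the IRF8 48 h, IRF4 72 h and IRF4 48 h windows the counts were 61, 60 and 61 of 178. The part of this repeat in the tag counts was not tested.

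The centres of the LPS peaks sat close to the element. The first base of the EICE was 17 bp from the IRF8 72 h centre, 19 bp from the IRF8 48 h centre, 9 bp from the IRF4 72 h centre and 53 bp from the IRF4 48 h centre. The 4 centres spanned 44 bp, and those other than IRF4 48 h spanned 10 bp. The IRF4 48 h centre, at 44684020, was inside the run of C and T. The GC interval ran from 44682474 to 44685782, and its midpoint was 55 bp past the first base of the EICE. At 3309 bp it ranked 8th by width among 1826 GC intervals, whose median width was 1144.5 bp.

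**Figure D2:**
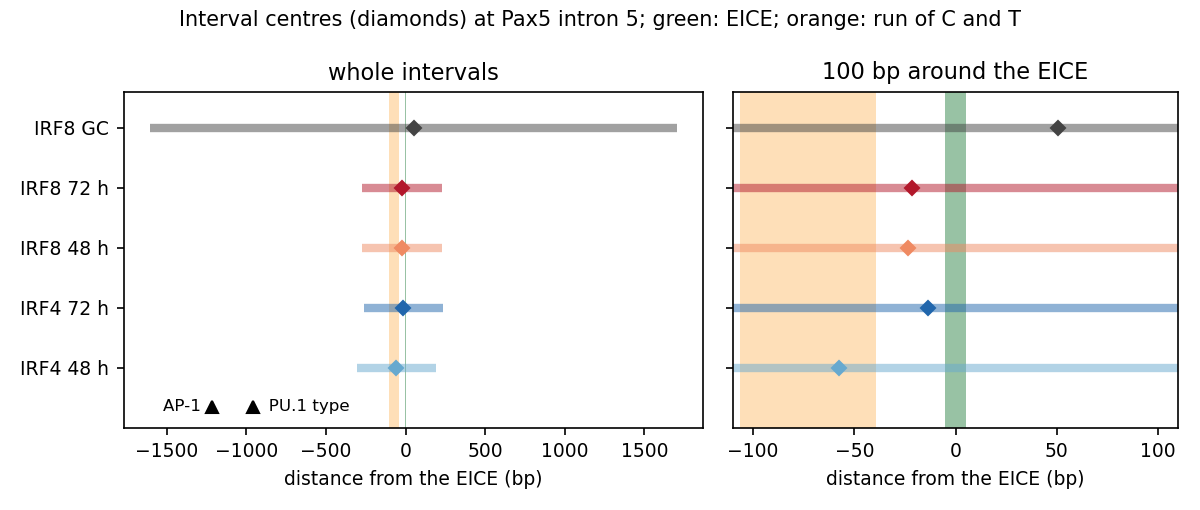
Intervals (bars) and their centres (diamonds) at Pax5 intron 5, in bp from the middle of the EICE, with 1 row per list, for the whole intervals on the left and for 100 bp on either side of the EICE on the right. The centres of IRF8 72 h, IRF8 48 h and IRF4 72 h lie within 10 bp of each other, IRF4 48 h lies in the run of C and T (orange band), and triangles mark the AP-1 and PU.1-type sites of the GC interval.

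Other elements were far from the centres. Within 100 bp of the centre no Pax5 interval held an AP-1 site (TGACTCA or TGAGTCA), an ISRE core (GAAANNGAAA), the PU.1-type site GAGGAAG or an AICE, which contains an AP-1 site. AP-1 sites lay under 5.81% of all GC intervals, 8.02% for IRF8 72 h, 11.1% for IRF8 48 h, 18.5% for IRF4 72 h and 28.7% for IRF4 48 h. ISRE cores lay under 13.5%, 12.1%, 6.19%, 7.22% and 4.54%, and PU.1-type sites under 12.1%, 14.4%, 10.2%, 15.2% and 14.5%, in the same order of lists. The 8 intervals make up 4 places, too few to set beside these shares. Of chromosome 4 cut into windows of the same length, 3.16% held an AP-1 site, 3.24% an ISRE core and 6.11% a PU.1-type site. The wide GC interval held 1 AP-1 site 1218 bp and 1 PU.1-type site 956 bp from the EICE, both on the side of lower coordinates. Over whole intervals, 23% of GC intervals held an EICE, 23.8% an AP-1 site and 45.8% a PU.1-type site, so such sites are common at that width. No match says only that these letters were not in the window.

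Counted by interval, 6 of 8 Pax5 intervals held an EICE within 100 bp of the centre. The share over each whole list was 7.34% for GC, 22.1% for IRF8 72 h, 19.5% for IRF8 48 h, 25.6% for IRF4 72 h and 14.6% for IRF4 48 h, and 2.15% of the windows of chromosome 4 held one. However, 5 of the 6 intervals share the same 10 bases of intron 5, so the locus holds 2 such elements at 4 places. The second lay under the IRF4 72 h peak at Zcchc7, at 44769524 to 44769533, 45 bp from the centre. The intron 6 peak of IRF4 48 h held an ISRE core 222 bp from its centre, at 44638230 to 44638239, and no other searched element. The GC interval in Zcchc7 held none over its 909 bp. Both elements are shown with 10 bases on either side, on the strand of the element and with the element in capitals, for comparison with intron 5 (chr4:44769514-44769543, minus strand, and chr4:44638220-44638249, plus strand, mm9).
Zcchc7 start: gcaccaaccaGGAACCGAAAcgcgtagagg
Pax5 intron 6: tctgatagggGAAATGGAAAaagagaggct

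Tag counts at intron 5 were high within their lists in 3 of the 4 LPS libraries. IRF8 had 104.4 normalised tags at 72 h (32 tags, 95% Poisson interval 71.4 to 147), rank 24 of 1059, and 32.0 at 48 h (14 tags, 17.5 to 53.7), rank 80 of 234. IRF4 had 92.9 at 72 h (35 tags, 64.7 to 129), rank 31 of 898, and 76.5 at 48 h (26 tags, 50 to 112), rank 95 of 1573. IRF8 72 h, IRF4 72 h and IRF4 48 h thus lay between 76.5 and 104.4 with overlapping intervals. IRF8 48 h lay below, its interval overlapping that of IRF4 48 h alone. The share of each list with fewer tags was 97.7% for IRF8 72 h, 61.5% for IRF8 48 h, 96.5% for IRF4 72 h and 92.9% for IRF4 48 h. These ranks and shares are over whole lists, including peaks whose median 24-base word was found more than 1 time. Such peaks were 134 of 1059 for IRF8 72 h and 49 of 234 for IRF8 48 h. For IRF4 they were 54 of 898 at 72 h and 70 of 1573 at 48 h. Ranks without them were not computed.

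By the authors' caller the intron 5 peak stood 32.0-fold over the surrounding 10000 bp for IRF8 at 72 h and 16.62-fold at 48 h, and 15.11-fold for IRF4 at 72 h and 22.45-fold at 48 h. The order by this local fold was not that by tags: IRF4 had more tags but a lower local fold at 72 h than at 48 h. The focus ratio, which the caller gives as the share of tags on the proper side of the centre for their strand, was 0.939 for IRF8 at 72 h, 0.875 for IRF8 at 48 h, 0.897 for IRF4 at 72 h and 0.862 for IRF4 at 48 h.

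The single-list peaks were weak beside it. The Zcchc7 peak of IRF4 at 72 h had 26.6 normalised tags (10 tags, 12.7 to 48.8), below the list median of 29.2, and stood 6.79-fold over its surroundings. The intron 6 peak of IRF4 at 48 h had 35.3 (12 tags, 18.3 to 61.7), below the list median of 38.3, and stood 9.91-fold over its surroundings. The share of the list with fewer tags was 13.9% for the Zcchc7 peak and 38.4% for the intron 6 peak. Of the 4178 places of the series, 78.1% were likewise in 1 list.

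**Figure D3:**
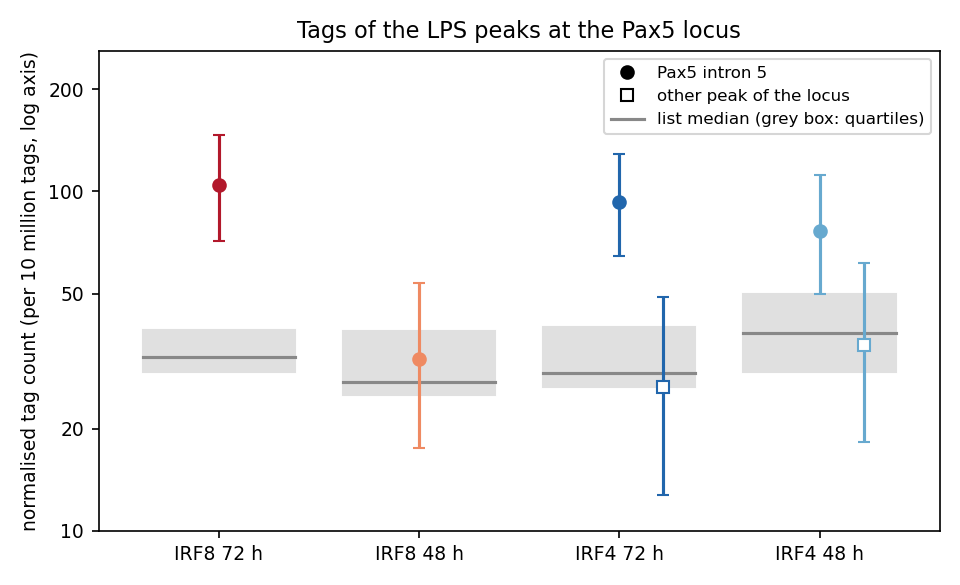
Normalised tag counts, on a log axis, of the 6 LPS peaks of the locus with 95% Poisson intervals of counting error, by library; grey boxes and lines are the quartiles and median of each whole list. Intron 5 (filled) lies above the upper quartile for IRF8 72 h, IRF4 72 h and IRF4 48 h and inside the quartiles for IRF8 48 h, and the other peaks (open) lie within or at the quartile box.

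The tag counts were then compared between libraries, as the series set 2 culture times and 2 factors side by side. A fold of 2 was used as the mark, and each value was set beside all single-copy places that the same 2 lists share. IRF8 tags at intron 5 were 3.26-fold higher at 72 h than at 48 h (95% exact binomial interval 1.69 to 6.62). Of the 95 shared single-copy places, 18 (18.9%) were at least 2-fold higher at 72 h, 92 were higher at 72 h at all, and the median ratio was 1.57 (quartiles 1.29 and 1.87). Intron 5 had the highest of the 95 ratios, and divided by the median its ratio was 2.08. The lead was slight: its log2 ratio was 1.71, and that of the next place 1.70. Among the 37 of these places with an EICE the median ratio was 1.71. A ratio needs a peak in both lists. The lists shared 140 places, against 1059 IRF8 72 h peaks and 234 IRF8 48 h peaks, the lowest of the latter at 20.6 normalised tags. Places with a peak at 72 h alone have no ratio, so larger rises may be missing from this ranking. IRF4 tags at intron 5 had a ratio of 1.21 for 72 h over 48 h, with an interval of 0.71 to 2.1 that includes 1. The 489 places shared by the IRF4 lists had a median ratio of 0.752, 3 of them (0.613%) were at least 2-fold higher at 72 h, and intron 5 ranked 49th. Among the 139 of these with an EICE the median was 0.82 and intron 5 ranked 24th.

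Between the factors, IRF8 and IRF4 tags at intron 5 stood close at 72 h, 104.4 against 92.9, with a ratio of 1.12 (0.673 to 1.87). The 209 shared single-copy places had a median ratio of 1.02, and 9 of them (4.31%) reached 2-fold. At 48 h IRF8 had 32.0 tags and IRF4 76.5, a ratio of 0.418 (0.202 to 0.83). Of the 89 places shared at 48 h, 24 (27%) were at or below 0.5, and their median was 0.657, so a low ratio was common there. Each factor had its own antibody, so factor and antibody cannot be told apart in these ratios.

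These ratios depend on the scaling. The IRF8 48 h library had the smallest share of tags in peaks, and the libraries differed in how much of their peak tags lay in single-copy peaks. That share was 62.3% for IRF8 72 h, 37.9% for IRF8 48 h, 64.7% for IRF4 72 h and 79% for IRF4 48 h. Under a scaling added with these values in view, to the tags in peaks, the IRF8 ratio of 72 h over 48 h had a log2 value of 0.19 in place of 1.71, and scaled to the tags in single-copy peaks it turned to -0.53. Of the 95 shared places, 4 and 0 were then higher at 72 h, in place of 92. The ratio of IRF8 over IRF4 at 72 h had a log2 value of 0.17 as deposited, and -0.06 and -0.01 under these scalings. That at 48 h was -1.26 as deposited, and turned to 0.90 and 1.96. Both scalings move with how many peaks were called in a library. The part of the immunoprecipitation's yield in the difference between the times was not tested.

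**Figure D4:**
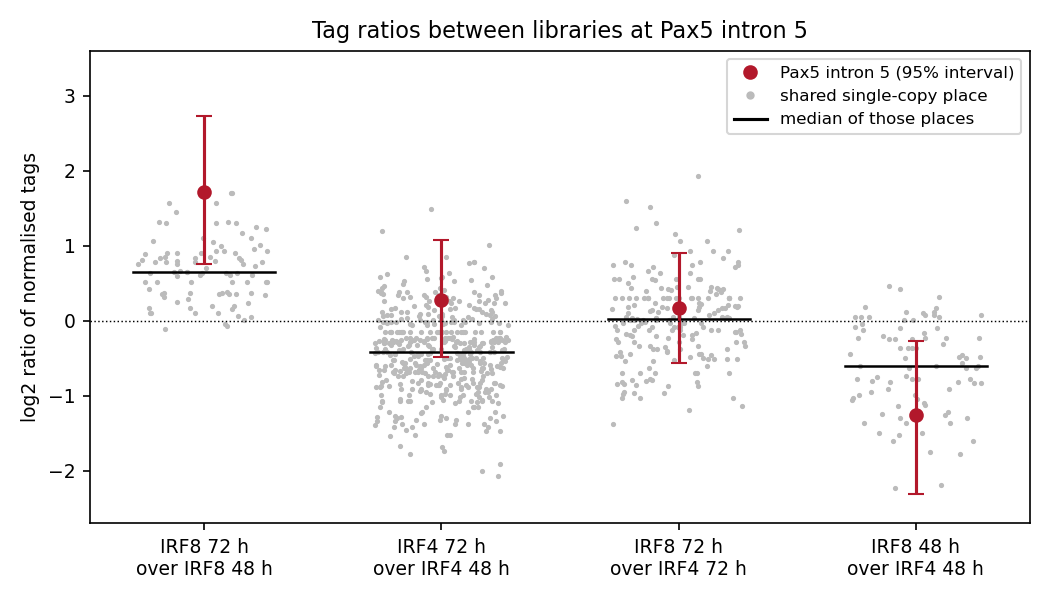
Log2 ratios of normalised tags between pairs of libraries at Pax5 intron 5 (red, 95% exact interval of counting error) over those of all single-copy places shared by the same 2 lists (grey, black line at the median). Pax5 has the highest ratio of the 95 places for IRF8 72 h over 48 h and lies inside the cloud for the other pairs. Places missing from either list of a pair have no point.

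A place in all 5 lists was rare: 17 of the 4178 places of the series (0.407%), all in single-copy sequence. Of the intervals of each list, 0.931% for GC, 1.61% for IRF8 72 h, 7.26% for IRF8 48 h, 1.89% for IRF4 72 h and 1.08% for IRF4 48 h lay at such a place. The short IRF8 48 h list bounds this number. Among the 17, Pax5 intron 5 had the most tags for IRF8 at 72 h, where the median was 42.4 and the next place, in an intron of Tcfeb, had 97.9. It ranked 5th for IRF8 at 48 h, with 32.0 against a median of 25.1. It had the most tags for IRF4 at 72 h, where the median was 45.1 and the next value was 61.1. It ranked 2nd for IRF4 at 48 h, with 76.5 against a median of 47.1. Its GC interval was the widest of the 17.

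An EICE lay within 100 bp of the IRF8 72 h centre at 9 of the 17 places, an AP-1 site at 5, an ISRE core at 1, and none of the 6 searched elements at 3. As deposited, IRF8 tags were higher at 72 h than at 48 h at all 17, and IRF4 tags at 7, Pax5 among them. These counts turned with the scaling: scaled to tags in peaks they were 1, Pax5 itself, for IRF8 and 15 for IRF4, and scaled to tags in single-copy peaks 0 and 16. The genes with the nearest start, chosen after the values were seen, included Icosl, which encodes the ligand of the T cell co-receptor ICOS, H2-DMb2, which encodes a chain of the complex that loads peptides on MHC class II, and Atf3, which encodes a stress-induced transcription factor. Pax5 intron 5 had 104.4 normalised IRF8 tags at 72 h, against 39.1, 39.1 and 29.4 at these EICE places. These are not its closest peers: the next values among the 9 EICE places were 78.3 and 62.0. For IRF8 at 48 h the highest value of the 9 was 45.7, above the 32.0 of Pax5.

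**Figure D5:**
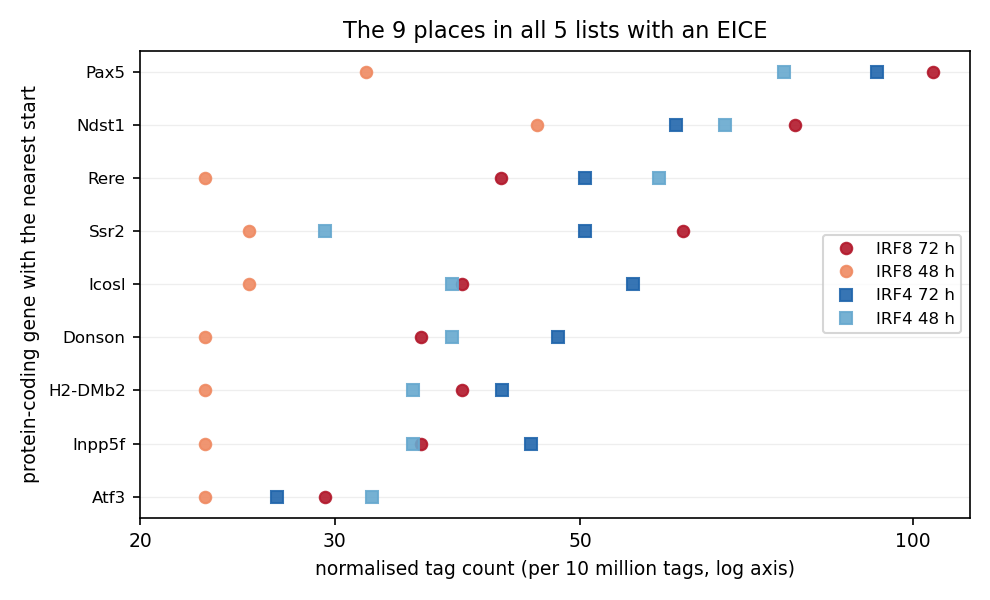
Normalised tag counts, on a log axis, at the 9 places of all 5 lists with an EICE within 100 bp of the centre, 1 row per place named by the protein-coding gene with the nearest start, ordered by the sum over the 4 LPS libraries. Pax5 is at the top, with the highest IRF8 72 h and IRF4 72 h values and its IRF8 48 h value at 32.0.

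The elements of these places can be read side by side. Each line shows 30 bases of mm9 on the strand of the element, with the EICE in capitals, to compare the bases between its GGAA and GAAA parts.
Pax5, chr4:44684063-44684092, plus strand: agaactgggaGGAACTGAAAcctaaccccc
Rere, chr4:149940463-149940492, minus strand: aagaaaaagaGGAAGTGAAAgcttcatgtg
Ssr2, chr3:88397371-88397400, minus strand: agcagaaatgGGAAGTGAAAgtaagatgct
Icosl, chr10:77550108-77550137, minus strand: gactttttcaGGAAATGAAActcccatgtt
Donson, chr16:91685914-91685943, plus strand: ctgacaaacaGGAAGTGAAAgtacctttcg
H2-DMb2, chr17:34280115-34280144, plus strand: acatgaatatGGAAGTGAAAtcctctccta
Inpp5f, chr7:135766096-135766125, minus strand: tttaggatggGGAACTGAAAgctccaattg
Atf3, chr1:193021949-193021978, plus strand: gtagaaaagtGGAAGTGAAActgcccaggg
Of these 8 elements, 5 have GT as the spacer, 2 have CT, at Pax5 and Inpp5f, and 1 has AT. The place near Ndst1 is named only.

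Genes with a like pattern were sought by the sum, over the 5 lists, of the difference in the number of intervals from those of Pax5, with the same window of 50 kb. No other protein-coding gene had a sum of 0, and 7 had a sum of 1, counted outside the genes that share an interval with Pax5. The nearest by IRF8 72 h tags was Arhgef2, which encodes an activator of the small GTPase RhoA, with 2 GC, 1 IRF8 72 h, 1 IRF8 48 h, 1 IRF4 72 h and 2 IRF4 48 h intervals and 62.0 normalised IRF8 tags at 72 h. Naa25 and Erp29 share their intervals, as do Heg1 and Muc13. Each of these 4 genes had 2 GC, 1 IRF8 72 h, 2 IRF4 72 h and 2 IRF4 48 h intervals, none for IRF8 48 h, and 48.9 IRF8 tags at 72 h. Over all 22380 protein-coding genes, 88 (0.393%) had an interval in all 5 lists within this window. The likeness is one of counts over 5 lists and depends on the window: with the gene body alone, none of these 5 genes was among the 5 nearest.

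Genes around PAX5 in the B cell network were described with 28 genes: 15 known to be activated by PAX5, 8 known to be repressed by it and 6 known to act upstream of Pax5, Ebf1 being both activated and upstream. None had an interval in all 5 lists, as was so for nearly all protein-coding genes (0.393% had one in all 5). Of the 28, 7 had none at all, and the share of all genes without one is not given here. By list, 14 of 28 had an interval for GC (15.6% of all genes), 6 for IRF8 72 h (8.81%), 0 for IRF8 48 h (1.99%), 6 for IRF4 72 h (7.61%) and 15 for IRF4 48 h (11.5%). The 28 genes were longer, with a median of 30 kb against 15.4 kb for all genes, and longer genes have wider windows; the part of length in these counts was not tested. For IRF8 48 h the whole list held 234 intervals.

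Activated genes with an interval were 10 of 15 for GC, 4 for IRF8 72 h, 5 for IRF4 72 h and 8 for IRF4 48 h. Repressed genes with one were 1 of 8, 1, 0 and 5, and upstream genes 4 of 6, 1, 2 and 3, in the same order of lists. The shares of all genes were 15.6%, 8.81%, 7.61% and 11.5% in that order. With so few genes in a class, no reading is drawn from the split. The genes in 3 or more lists were Bach2, Irf4, Blnk, Ebf1, Foxo1 and Spib, 6 of 28, against 4.75% of all genes. Irf4 itself had 1 GC, 1 IRF8 72 h, 1 IRF4 72 h and 3 IRF4 48 h intervals. Spib, which encodes an ETS partner of the IRF factors on the EICE, had 2 GC, 1 IRF8 72 h and 2 IRF4 72 h intervals. Blnk, which encodes an adaptor of B cell receptor signalling, and Ebf1, which encodes a B lineage factor upstream of Pax5, had none for IRF8 in LPS culture.

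Bach2, which encodes a repressor of plasma cell differentiation and lies on the same chromosome, served for comparison, with no test. The Pax5 window held 8 intervals, against 16 in the Bach2 window, of which 4 were GC, 3 IRF8 72 h, 0 IRF8 48 h, 2 IRF4 72 h and 7 IRF4 48 h. The highest peak of the Pax5 window had 104.4 normalised IRF8 tags at 72 h, 92.9 IRF4 tags at 72 h and 76.5 IRF4 tags at 48 h, and the highest of the Bach2 window in the same libraries had 68.5, 66.4 and 120.7. The Bach2 gene is 347305 bp long and has the wider window.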

How the data were processed

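Members and gene lists were chosen with earlier results of these data known. Per the file headers, the authors called the 4 LPS lists with HOMER findPeaks in transcription factor style: 500 bp peaks at least 1000 bp apart, no more than 1 tag per position, 0.001 as the false discovery rate and a 4-fold excess over the surrounding 10000 bp. Per the series' design text the GC list was called with MACS; the sources used here do not give its settings. BWA, Bowtie2 and the build mm9 are named in the submitters' processing notes.

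Per the file headers, the signal is the normalised tag count per 10000000 tags. The deposited findPeaks score is a number of tags, the local fold and the clonal fold are ratios, the focus ratio is a fraction, and the p-value against the local region was not used. The deposited GC file gives start and end alone. Dividing out the scaling gave whole tags within 0.05 for 100% of peaks.

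Genes came from GENCODE M1 on NCBIM37, which is mm9; Spi1 was matched as Sfpi1. Intervals that overlapped by at least 1 bp formed 1 place. The search for motifs covered 100 bp on either side of the centre and both strands: EICE (GGAANNGAAA), ISRE core (GAAANNGAAA), AP-1 (TGACTCA or TGAGTCA), AICE1 (GAAA directly before AP-1), AICE2 (GAAA or TTTC, 4 free bases, AP-1) and a PU.1-type site (GAGGAAG). AICE sites contain an AP-1 site. A peak was single-copy when the median 24-base word within 100 bp of its centre was found 1 time. Poisson, binomial and Clopper-Pearson intervals are exact at 95% (scipy 1.17.1). Named genes were Pax5, its neighbours by location, the 5 genes most like it and the listed genes found in 3 or more lists; genes near other places in all 5 lists were named after their values were seen. The gene nearest to 1 of the 17 places in all 5 lists is not reported here. Scripts were tested on simulated data.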

Additional observations from a re-analysis of the deposited data

Results flagged for a closer look

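The contrast of IRF8 with IRF4 at Pax5 intron 5 pointed opposite ways at the 2 culture times in the deposited counts. The log2 ratio of IRF8 over IRF4 tags was 0.17 at 72 h and -1.26 at 48 h, with 1 library on each side, and the difference between the times was not tested. The interval at 72 h (-0.57 to 0.90) includes 0, and that at 48 h (-2.31 to -0.27) does not. Factor and antibody cannot be told apart in either ratio. The directions depend on the scaling: with tags in peaks and tags in single-copy peaks as the scale, the ratio was -0.06 and -0.01 at 72 h, and 0.90 and 1.96 at 48 h.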

How the results depend on the processing

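No paired analysis was possible because each group held 1 library, and no library could be left out. The intron 5 place stayed in all 5 lists with the gene body alone, with 100 kb on each side, without multi-copy peaks and with a required overlap of 50% of the shorter interval. With LPS peaks of at least 32.6 normalised tags, it was lost from the IRF8 48 h list (0 intervals), and IRF4 72 h kept 1 of 2. With the gene body alone, 1 GC and 1 IRF4 72 h interval and 2 of 4 places remained, none of the 5 like genes was found again (0 of 5), and the 28 B cell genes with an interval were 3 for GC (4.35% of all genes in that window), 2 for IRF8 72 h (2.22%), 3 for IRF4 72 h (1.96%) and 5 for IRF4 48 h (3.15%). Within 50 bp of the centre, 3 intervals held the EICE. Over whole intervals, 1 held an ISRE core, 1 a PU.1-type site and 1 an AP-1 site. Of the log2 tag ratios, IRF8 72 h over 48 h was 1.71, and 0.19 with tags in peaks and -0.53 with tags in single-copy peaks as the scale. IRF4 72 h over 48 h was 0.28, and 1.15 and 1.44. IRF8 over IRF4 at 48 h was -1.26, and 0.90 and 1.96. These scalings were added after the data were seen. Divided by the median ratio of shared places, the ratios were 1.06, 0.69 and -0.65. The peaks held 10 to 35 tags each, and the intervals of the ratios at intron 5, 0.71 to 2.1 for IRF4 over time, are as wide as that depth allows.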

Other observations

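The CT spacer of the Pax5 EICE, between its GGAA and GAAA parts, was not equally frequent over the whole lists. Of GC intervals with an EICE within 100 bp of the centre, 8.21% had it (11 of 134, 95% Clopper-Pearson interval 4.17 to 14.2). Of such IRF8 72 h peaks 22.1% had it (51 of 231, 16.9 to 28). For IRF8 48 h the share was 22.7% (10 of 44, 11.5 to 37.8). For IRF4 it was 41% at 72 h (93 of 227, 34.5 to 47.7) and 46.7% at 48 h (107 of 229, 40.1 to 53.4). The share with the GT spacer was 26.9% for GC, 41.1% for IRF8 72 h, 47.7% for IRF8 48 h, 28.6% for IRF4 72 h and 24% for IRF4 48 h. CT was thus the most frequent spacer of both IRF4 lists, and GT that of the 3 IRF8 lists. With single-copy peaks alone the CT shares were 9.65%, 22.8%, 22.7%, 41% and 47.1% in the order GC, IRF8 72 h, IRF8 48 h, IRF4 72 h and IRF4 48 h. The GC windows were centred on the midpoints of wider intervals from another caller. An EICE lay in 7.34% of them, against 14.6% to 25.6% of the LPS windows and 2.15% of the windows of chromosome 4. The GC shares are thus not a like measure, and the part of chance matches in them was not tested. Factor and antibody cannot be told apart in these lists. The lists share places, each is 1 library, and the shares were not tested against each other.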
